A study of Homo sapiens with 4 samples.

Results

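APELA, the gene of the peptide hormone ELABELA, was about 6-fold lower in HGC-27 cells with USP47 shRNA than with control shRNA, whereas APLN, the gene of apelin, differed by less than the spread between replicates. APLNR, the receptor that both peptides bind, gave at most 3 reads in any library. These 3 genes are the 2 ligands and the receptor of the apelin system, out of 63568 gene identifiers counted in the series and 21932 tested. They were matched by symbol, and they were chosen by the change of APELA in the comparison described here, so their own differences are given as a description without a test. Of the 3 genes, 2 passed the filter on low counts and APLNR did not.

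HGC-27 is an established line from an undifferentiated gastric carcinoma. The cells carried lentivirus with either a scrambled shRNA (control shRNA) or an shRNA against USP47 (USP47 shRNA), with 2 libraries of polyA RNA for each, named replicate 1 and replicate 2. USP47 is a deubiquitinase, an enzyme that takes ubiquitin off other proteins. The study made knockdowns with more than 1 shRNA, and the labels do not say which of them the knockdown libraries carry. The series text also mentions DMSO as a vehicle for control cells, which the labels of these libraries do not repeat. The comparison asks which transcripts differ when USP47 is depleted. USP47 itself had 80.0 and 66.1 CPM (counts scaled to the size of the library, after TMM normalization) in the controls and 36.0 and 21.5 CPM in the knockdown libraries, so 49.3% of the control mean was left in replicate 1 and 29.5% in replicate 2. DKK3 and the pseudogene H3P33, both with counts, overlap USP47 on the opposite strand, and counting that ignored strand could have mixed their reads with those of USP47.

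The libraries held between 15649899 and 20140273 counts. Replicates are biological duplicates by the series text, so the p-values rest on 2 samples per group. The spread of each gene was estimated with help from the other genes. Spread between shRNAs or between transductions may not be covered. Of 8 gastric epithelial marker genes, KRT18, KRT19, MUC5AC, TFF1 and GKN1 had 3 counts or fewer in every library, and the summed level of all 8 was 0.777 to 0.791 TPM (transcript abundance scaled for gene length and library size) in controls and 0.555 to 0.965 TPM with USP47 shRNA. Of the 3 tested, EPCAM was lower, from 12 and 11 counts to 3 and 3 (adjusted p = 0.0416), a call lost under 5 of 8 alternatives. The 6 mesenchymal markers summed to 259 to 284 TPM in controls and 171 to 189 TPM with USP47 shRNA. Of the 5 tested, 4 were lower at an adjusted p under 0.05, namely FN1, PDGFRB, COL1A1 and COL1A2. The calls of FN1 and PDGFRB held under every alternative, while 2 alternatives lost that of COL1A1 and 1 that of COL1A2. Over all genes tested 9.56% were lower, a share to set beside the calls of each marker list. The endothelial markers, which bear on the usual site of APLNR, summed to 4.02 to 5.06 TPM in controls and 2.02 to 2.92 TPM in knockdown cells over the 7 of 8 genes found, with CDH5 at 3 counts or fewer everywhere and 2 of 4 tested, CLDN5 and ESAM, lower. Both calls were lost under alternatives, 5 for CLDN5 and 3 for ESAM, the removal of either control library among them (adjusted p up to 0.130 and 0.201). The 5 leukocyte markers summed to 3.78 to 4.33 TPM in controls and 2.20 to 3.81 TPM in knockdown cells, and CD3E had 3 counts or fewer everywhere. The part of these markers in the results was not tested. In bulk RNA, fewer cells that express a gene and less of its RNA per cell cannot be told apart.

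The apelin receptor is a G protein-coupled receptor that couples to inhibitory G proteins and recruits beta-arrestins. Its ligands are short secreted peptides cut from longer precursors, some forms of them at pairs of basic residues. Peptidases such as neprilysin inactivate them outside the cell. ELABELA acts early in the embryo, where it guides endoderm and heart precursor cells and is made by pluripotent cells. Apelin acts mainly in blood vessels, heart and adipose tissue, and it is a known hypoxia-induced gene.

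The coding sequences of both ligands, from the GENCODE annotation of release 44 lifted to GRCh37, are shown for the basic stretches at which the precursors can be cut. APELA lies on the forward strand at chr4:165798330-165820117. The coding part of its transcript APELA-202 spans 165798484 to 165800160 and takes 165 of 2432 transcript bases, in 2 of 3 exons. APLN lies on the reverse strand at chrX:128779236-128788933. The coding part of its transcript APLN-201 spans 128782603 to 128788607 and takes 234 of 3224 bases, also in 2 of 3 exons. Capitals mark runs of at least 2 consecutive arginine or lysine codons.
APELA: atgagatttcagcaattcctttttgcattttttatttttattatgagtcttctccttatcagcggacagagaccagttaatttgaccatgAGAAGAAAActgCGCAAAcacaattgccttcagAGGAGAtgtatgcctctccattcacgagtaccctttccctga
APLN: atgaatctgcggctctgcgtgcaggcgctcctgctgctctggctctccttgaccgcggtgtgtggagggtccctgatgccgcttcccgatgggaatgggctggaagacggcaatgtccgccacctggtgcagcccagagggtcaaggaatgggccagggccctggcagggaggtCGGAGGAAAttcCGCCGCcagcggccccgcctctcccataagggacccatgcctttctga
APELA has 54 codons before its stop, 10 of them for arginine or lysine, with 3 basic runs at codons 31 to 33, 35 to 36 and 42 to 43. APLN has 77 codons and 12 basic ones, with 2 runs at codons 59 to 61 and 63 to 64. Both therefore hold a run of 3 basic codons, 1 other codon and a run of 2, while APELA has a further pair. The GC content of the coding sequence was 39.4% in APELA and 65.4% in APLN. In both genes most of the transcript lies after the stop codon, 2113 bases in APELA-202 and 2664 in APLN-201.

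APELA had 176 and 164 counts in control replicates 1 and 2 and 24 and 28 counts in USP47 shRNA replicates 1 and 2. After normalization these were 10.4 and 8.36 CPM against 1.15 and 1.95 CPM. Both knockdown libraries lay far below both controls, with no overlap, and they kept 12.3% and 20.8% of the control mean. The library with less USP47 mRNA left, replicate 2, was the one with more APELA left, though on 24 and 28 reads. The mean went from 9.37 ± 1.43 CPM to 1.55 ± 0.563 CPM (SD, n = 2 each), a 6.03-fold difference and a log2 fold change of -2.63 with a standard error of 0.26. Summed over libraries, 340 counts in controls (Poisson 95% interval 305 to 378) stood against 52 (38.8 to 68.2) with USP47 shRNA, and such intervals cover counting error only. APELA ranked 33 by size of fall among the 21932 genes tested, whose median log2 fold change was -0.0083. These values chose the gene, and nothing is drawn from them here.

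The background in the same fit was large. Of all genes tested, 16.1% differed at an adjusted p under 0.05 (edgeR quasi-likelihood test, Benjamini-Hochberg adjustment), 9.56% lower and 6.52% higher with USP47 shRNA. In 31.7% of genes both knockdown libraries lay below both controls, as they did for APELA. The share at an unadjusted p under 0.05 is not given, so list counts at that level have no background beside them. The 3527 calls became 1230 and 1415 without control replicate 1 or 2, and 7270 and 6517 without USP47 shRNA replicate 1 or 2.

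APLN had 49 and 76 counts in the controls and 58 and 50 counts with USP47 shRNA, or 2.89 and 3.87 CPM against 2.79 and 3.48 CPM. The groups overlapped, since knockdown replicate 2 lay between the control libraries. The means were 3.38 ± 0.696 CPM and 3.14 ± 0.491 CPM (SD, n = 2 each), with 92.8% of the control mean left. The log2 fold change of -0.13 was smaller than its standard error of 0.24, and it became 0.10 without control replicate 2 and 0.040 without USP47 shRNA replicate 1, so no direction could be given. The count sums were 125 (95% interval 104 to 149) and 108 (88.6 to 130).

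APLNR, on the reverse strand at chr11:57001051-57004724, had 0 and 1 counts in the controls and 3 and 1 counts with USP47 shRNA. A level of 3 counts corresponds to 0.144 to 0.209 CPM in these libraries, and every library was at or under its own. The sums of 1 count (95% interval 0.0253 to 5.57) and 4 counts (1.09 to 10.2) overlapped within their counting intervals, so no fold is given. Receptor mRNA was near or below what this depth can detect in both groups. In the GENCODE annotation no other gene overlaps any of these 3, on either strand.

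**Figure D1:**
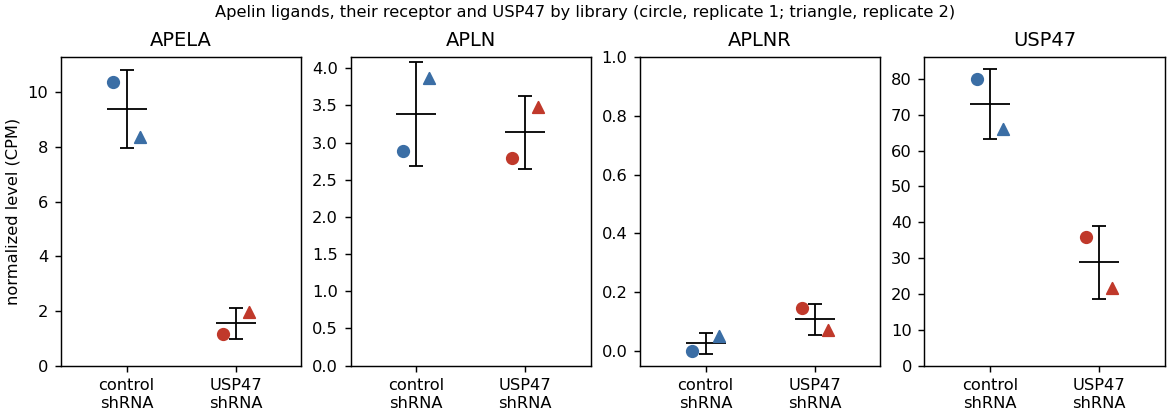
Normalized level (CPM, linear axis, a scale of its own in each panel) of APELA, APLN, APLNR and USP47 in each library, with circles for replicate 1 and triangles for replicate 2. Horizontal lines are group means and bars 1 SD (n = 2). APELA is at 10.4 and 8.36 CPM with control shRNA and at 1.15 and 1.95 CPM with USP47 shRNA, while APLN stays between 2.79 and 3.87 CPM in all libraries and APLNR lies under 0.15 CPM.

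The levels of the ligands can be set beside each other only per transcript length, for which the deposited TPM values were used. APELA stood at 4.89 and 3.47 TPM in the controls and at 0.542 and 0.685 TPM with USP47 shRNA. APLN stood at 1.31 and 1.54 TPM in the controls and at 1.26 and 1.17 TPM with USP47 shRNA. The order of the ligands was thus reversed between the groups. APELA was 3.74 and 2.25 times APLN in the control libraries and 0.431 and 0.584 times APLN in the knockdown libraries, means of 3.00 ± 1.06 and 0.508 ± 0.108 (SD, n = 2 each). APELA made up 78.9% and 69.2% of the summed ligand TPM in the controls and 30.1% and 36.9% with USP47 shRNA. The sum went from 5.61 ± 0.839 TPM to 1.83 ± 0.0434 TPM. These ratios contain the APELA values that chose the gene and carry no test.

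Among 72 peptide ligands of G protein-coupled receptors, APELA had rank 6 by mean TPM in the controls, below ADM2, SCT, TAC4, QRFP and ADM. With USP47 shRNA it had rank 17, and APLN went from rank 14 to rank 12. In controls APELA was at percentiles 48.3 and 43.4 of the TPM of all genes tested, and in knockdown cells at 8.09 and 15.4. APLN was between percentiles 17.8 and 24.7 in all 4 libraries.

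Of the 70 other peptide ligands, 17 passed the filter on low counts, of which 3 were lower, 2 were higher and 12 did not pass the test. The lower and higher calls were 17.6% and 11.8% of those tested, against 9.56% and 6.52% of all genes tested. Their median log2 fold change was -0.0035. ADM2, the gene of intermedin, had 45.2 and 51.7 CPM in controls and 17.6 and 24.6 CPM with USP47 shRNA, a log2 fold change of -1.21 (SE 0.17, adjusted p = 0.00218). NMU, which encodes neuromedin U, went from 2.42 and 2.85 CPM to 0.817 and 0.697 CPM, a log2 fold change of -1.78 (SE 0.29, adjusted p = 0.00423). UTS2B, the gene of the urotensin-related peptide, had a log2 fold change of -1.57 (adjusted p = 0.0167). ADM, the gene of adrenomedullin, rose from 8.43 and 8.46 CPM to 11.1 and 18.3 CPM, a log2 fold change of 0.78 (adjusted p = 0.0389), and NMB, the gene of neuromedin B, by 0.88 (adjusted p = 0.0398). SCT, the gene of secretin, had -0.099 (adjusted p = 0.838). The ADM2 and NMU calls held under every alternative run. Those of UTS2B, ADM and NMB were lost without control replicate 1 (adjusted p = 0.0537, 0.0919 and 0.176) and without control replicate 2 (0.0758, 0.0786 and 0.0897), and those of ADM and NMB also without USP47 shRNA replicate 2 (0.0642 and 0.0792), with library size alone (0.0671 and 0.0672) and with no filter on low counts (0.0613 and 0.0620). DESeq2 did not call NMB (0.0743) and gave UTS2B no adjusted p.

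Of 10 listed enzymes that cut or degrade such peptides, 6 were tested, of which 3 were lower and 1 was higher. Over all genes tested 9.56% were lower and 6.52% higher, and only the MME call held under every alternative. MME, the gene of neprilysin, which degrades both ligands, had 17.8 and 14.9 CPM in controls and 8.80 and 6.48 CPM with USP47 shRNA, a log2 fold change of -1.08 (SE 0.19, adjusted p = 0.00510). The proprotein convertase genes moved both ways, with PCSK4 at -0.75 (adjusted p = 0.0135), PCSK5 at -0.60 (adjusted p = 0.0294) and PCSK7 at 0.49 (adjusted p = 0.0256) on the log2 scale. FURIN, the convertase that matures the ELABELA precursor, had 21.5 and 24.5 CPM against 17.9 and 19.6 CPM, a log2 fold change of -0.30 that did not pass (adjusted p = 0.177), and PCSK6 had -0.093 (adjusted p = 0.672). KLKB1, PCSK1 and PCSK2 were among the 4 not tested. The 3 convertase calls were lost without control replicate 1 (adjusted p = 0.134, 0.236 and 0.269 for PCSK4, PCSK5 and PCSK7) and without control replicate 2 (0.0681, 0.148 and 0.361), while that of MME held under every alternative. DESeq2 did not call PCSK5 (0.0553), and PCSK7 was lost with library size alone (0.0567).

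Over all genes tested 16.1% were called, a share that gives few calls among 11 genes. None of the 11 genes by which the receptor couples to its effectors was called, 0 by edgeR and 0 by DESeq2. At an unadjusted p under 0.05, 2 were lower and 1 was higher, so the 0 calls say little about the list. The count of calls rose to 1 with library size alone and with at least 10 counts required in every library, and to 3 with the replicate block. It also rose when either USP47 shRNA library was left out. GNAI2, an inhibitory G protein subunit and one of the most abundant of the list, had a log2 fold change of 0.27 (SE 0.17, adjusted p = 0.313), and its relative GNAI3 had -0.014 (adjusted p = 0.955). ARRB2, the gene of beta-arrestin 2, had 24.2 and 29.1 CPM in controls and 18.4 and 19.9 CPM with USP47 shRNA, a log2 fold change of -0.48 that just missed the threshold (adjusted p = 0.0506). The receptor itself was hardly counted, as given above, while the genes that carry its signal were present.

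Among 22 downstream effectors, 20 were tested, of which 3 were lower and 3 were higher, or 15% each. Over all genes tested 9.56% were lower and 6.52% higher. PRKAA2, a catalytic subunit of AMP-activated kinase, had 23.0 and 21.5 CPM in controls and 11.0 and 9.06 CPM with USP47 shRNA, a log2 fold change of -1.14 (SE 0.16, adjusted p = 0.00194). The kinase gene AKT1 was lower by a log2 fold change of -0.58 (adjusted p = 0.0180). The genes that rose are known from a relay downstream of apelin in endothelium, in which histone deacetylases restrain MEF2 factors and these induce KLF2. Whether this relay took part was not tested, and APLNR itself was hardly counted. HDAC5 rose from 61.4 and 66.3 CPM to 92.0 and 123 CPM, a log2 fold change of 0.75 (adjusted p = 0.0113). MEF2D rose by 0.78 (adjusted p = 0.0113) and KLF2 by 1.08 (adjusted p = 0.0172), the last from 2.54 and 3.21 CPM to 4.95 and 7.46 CPM. HDAC4 (0.011) and NOS3 (-0.22, adjusted p = 0.427), of the same relay, and MAP2K2 (0.33, adjusted p = 0.170) did not pass. MEF2A lay in the other direction from MEF2D, at -0.29 (adjusted p = 0.153), and did not pass either. MEF2C was not tested. Without control replicate 1 the calls of AKT1, HDAC5, MEF2D and KLF2 were lost (adjusted p = 0.166, 0.120, 0.0994 and 0.0793), and without control replicate 2 that of AKT1 (adjusted p = 0.230). That of PRKAA2 held throughout.

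Of 10 receptors related to APLNR, 2 passed the filter, of which 1 was lower. Over all genes tested 9.56% were lower. CXCR4, a chemokine receptor, had 16 and 20 counts in controls and 3 and 4 counts with USP47 shRNA, a log2 fold change of -2.26 (SE 0.48, adjusted p = 0.0124). From the count sums, 20.2% of its control level was left (95% counting interval 7.60% to 46.1%). EDNRA, an endothelin receptor, had a log2 fold change of 0.44 (adjusted p = 0.0716). DESeq2 gave CXCR4 no adjusted p, and with at least 10 counts required in every library CXCR4 was not tested. Its call held under the 8 alternatives that gave an adjusted p.

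**Figure D2:**
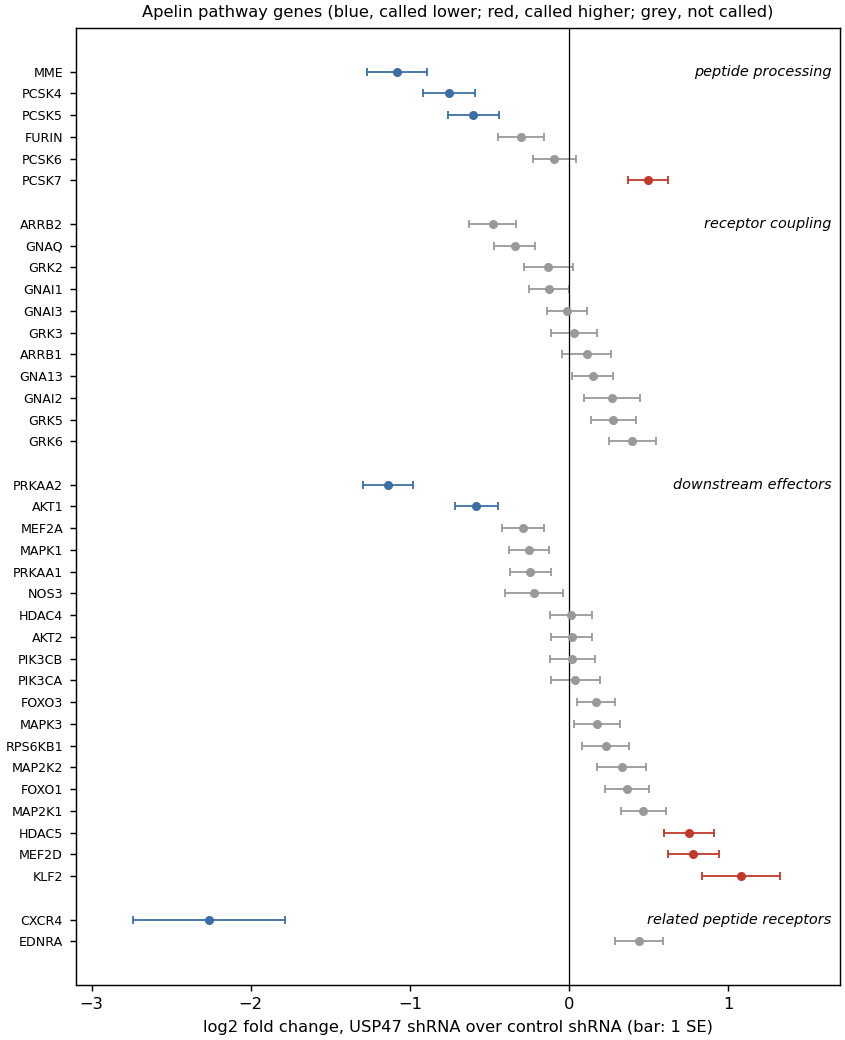
Log2 fold change of USP47 shRNA over control shRNA (points, bars 1 standard error) for the tested genes of peptide processing, receptor coupling, downstream effectors and related receptors, ordered by size within each list (1 downstream effector is not shown). Blue points were called lower, red points higher and grey points neither. The receptor coupling genes are all grey and lie between -0.48 and 0.40, while CXCR4 at -2.26 and KLF2 at 1.08 mark the ends of the range.

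APLN is a hypoxia-induced gene, and 20 hypoxia factors and targets were all tested. None was lower and 4 were higher by edgeR, and 3 were higher by DESeq2. At an unadjusted p under 0.05, 9 were higher and 1 was lower, with no share of all genes at that level to judge them by. The edgeR calls were 20% of the list, against 16.1% of all genes tested, 6.52% higher and 9.56% lower. Their median log2 fold change was 0.24. SLC2A1, the glucose transporter GLUT1, rose from 34.1 and 44.3 CPM to 52.6 and 67.6 CPM, a log2 fold change of 0.61 (adjusted p = 0.0336). NDRG1 (0.75, adjusted p = 0.0246), BNIP3L, a mitophagy receptor (0.46, adjusted p = 0.0354), and ADM also rose. HIF1A, the oxygen-regulated factor, had 119 and 97.0 CPM in controls and 87.8 and 69.3 CPM with USP47 shRNA, a log2 fold change of -0.46 that did not pass (adjusted p = 0.0728). P4HA1, a collagen prolyl hydroxylase, had -0.19 (adjusted p = 0.324). None of the 4 calls held without control replicate 1 (adjusted p = 0.399 for SLC2A1, 0.225 for NDRG1, 0.329 for BNIP3L and 0.0919 for ADM), and of the 4 only that of SLC2A1 held without control replicate 2 (0.127 for NDRG1, 0.355 for BNIP3L and 0.0786 for ADM). With library size alone or with no filter on low counts 1 call was left in the list, SLC2A1 (adjusted p = 0.0510 and 0.0552), BNIP3L (0.0976 and 0.0686) and ADM (0.0671 and 0.0613) being lost, and DESeq2 did not call NDRG1 (0.0632).

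APELA is known as a gene of pluripotent and endoderm cells. Of 21 such genes, 7 were tested, of which 1 was lower and 1 was higher, with a median log2 fold change of -0.011. Each call was 14.3% of those tested, against 9.56% lower and 6.52% higher over all genes tested. FOXA2, an endoderm transcription factor, had 23 and 30 counts in controls and 2 and 3 counts with USP47 shRNA, a log2 fold change of -3.28 (SE 0.47, adjusted p = 0.00234), with 9.82% of its control level left by the count sums (95% counting interval 3.06% to 24.4%). LIN28B, which blocks the maturation of let-7 miRNAs, rose from 14.6 and 14.7 CPM to 42.6 and 33.7 CPM, a log2 fold change of 1.38 (SE 0.15, adjusted p = 0.00073). GATA4, also an endoderm factor, had 0.23 (adjusted p = 0.363). Both calls held under every alternative that gave the gene an adjusted p. DESeq2 gave FOXA2 none, and with at least 10 counts required in every library FOXA2 was not tested.

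Counted once each, the genes of these 7 lists numbered 163, of which 82 were tested. The calls were 11 lower and 10 higher, or 13.4% and 12.2% of those tested, against the 9.56% and 6.52% of all genes given above. With library size alone they were 12 lower and 5 higher, and over all genes the higher calls then went from 1430 to 881. The median log2 fold change of the 82 was 0.025. The 21 calls became 9 without control replicate 1, 13 without control replicate 2 and 40 without USP47 shRNA replicate 1. Of the 21 calls, 8 held under every alternative that gave the gene an adjusted p. An annotated gene with counts on the opposite strand overlaps 9 of the 21, MME, ADM2 and LIN28B among them, and the source of their reads would be uncertain if strand was not used in counting.

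The tested neighbours of APELA on its chromosome gave no call in the comparison of all libraries. Within 500 kb of the gene, 33 annotated genes were found and 8 were tested. Of these 0 were called by edgeR and 0 by DESeq2, with 1 lower and 0 higher at an unadjusted p under 0.05. Over all genes tested 16.1% were called, a share that gives few calls among 8 genes, so 0 of 8 says little. The nearest tested genes were NACA3P, a pseudogene, with a log2 fold change of 0.61 (adjusted p = 0.210), ENSG00000249617 with 0.33 (adjusted p = 0.692) and TMEM192, a lysosomal membrane protein, with 0.0025 (adjusted p = 0.994). KLHL2 (0.15), MSMO1, a sterol synthesis enzyme (0.068), CPE, a carboxypeptidase that trims peptide hormones (0.30), MARCHF1 (-0.25) and GK3 (-0.53) had adjusted p between 0.153 and 0.739. CPE was called, at 0.49 (adjusted p = 0.000116), without USP47 shRNA replicate 1. GK3 is an intronless copy of a glycerol kinase gene, so its reads are uncertain.

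Of the 8 tested neighbours of APLN, 2 were lower, while 5 of the 8 had log2 fold changes above 0. The lower calls were 25% of those tested, against 9.56% of all genes tested. The nearest, OCRL, a phosphatase gene 52698 bases away, had 0.35 (adjusted p = 0.0897). XPNPEP2, an aminopeptidase gene 83992 bases away, went from 7.31 and 6.42 CPM to 1.92 and 3.48 CPM, a log2 fold change of -1.39 (SE 0.26, adjusted p = 0.00740). SMARCA1, a chromatin remodelling ATPase gene 121759 bases away on the other side, went from 9.26 and 8.10 CPM to 2.89 and 2.86 CPM, a log2 fold change of -1.59 (SE 0.19, adjusted p = 0.000948). The other 6 of 8 tested neighbours, OCRL, ZDHHC9, UTP14A, BCORL1, ELF4 and AIFM1, had log2 fold changes from -0.092 to 0.38 and did not pass.

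Around the hardly counted APLNR, 16 of 50 genes were tested, of which 5 were lower and 3 were higher. The 8 calls were 50% of those tested, against 16.1% of all genes tested. The largest differences were those of YPEL4 (-2.14, adjusted p = 0.000503) and SERPING1, the complement C1 inhibitor (-2.00, adjusted p = 0.00543). MIR130AHG (-1.50, adjusted p = 0.00525), RTN4RL2, a Nogo receptor relative (-1.05, adjusted p = 0.00377), and TMX2 (-0.62, adjusted p = 0.0126) were also lower. CLP1, an RNA kinase (0.78, adjusted p = 0.00663), TNKS1BP1 (0.56, adjusted p = 0.0308) and ZDHHC5 (0.49, adjusted p = 0.0473) were higher. MIR130AHG and CLP1 each overlap YPEL4 on the opposite strand, so their reads may not be separable. SSRP1, RPS4XP13, SLC43A1, TIMM10, SMTNL1, UBE2L6, MED19 and PPIAP42 lay between -0.18 and 0.49 and did not pass. Over all 3 surroundings, 10 of 32 tested genes were called, or 31.25%, against 16.1% of all genes tested. Whether these surroundings differ from other genes was not tested. Of the 10, 6 were called under every alternative, XPNPEP2, SMARCA1, RTN4RL2, SERPING1, MIR130AHG and YPEL4. The other 4 were lost without control replicate 1 (adjusted p = 0.387 for TNKS1BP1, 0.121 for CLP1, 0.494 for ZDHHC5 and 0.0994 for TMX2), and all but CLP1 without control replicate 2 (0.198, 0.167 and 0.161).

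The genes most like each ligand were found by the Euclidean distance between log2 CPM centred over the 4 libraries, among 14479 genes with a symbol and an average log2 CPM of at least 1. Over 4 libraries this likeness is a description and follows mainly the difference between the groups. Nearest to APELA were LAMA1, the laminin alpha 1 chain of basement membranes (distance 0.351, log2 fold change -2.36), LGI4, a secreted protein of myelinating glia (0.354, -2.58), SCN4B, a sodium channel subunit (0.372, -2.39), SLC16A14, of the monocarboxylate transporter family (0.404, -2.34), and PHF21B (0.409, -2.56). LAMA1 had 16.9 and 14.9 CPM in controls and 2.74 and 3.55 CPM with USP47 shRNA. In these 5 genes, as in APELA, knockdown replicate 1 was the lower of the knockdown libraries, an order that the choice by distance over these libraries favours.

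Nearest to APLN were CCNO, a cyclin-like gene (distance 0.00816), LSR, a lipoprotein receptor of tricellular junctions (0.0176), ATP6V0D1, a subunit of the vacuolar proton pump (0.0190), H4C11, a histone H4 gene (0.0404), and ZFPL1 (0.0419). Their log2 fold changes lay between -0.13 and -0.11. Each of them, like APLN, was higher in replicate 2 than in replicate 1 of both groups, an order that the choice by distance favours. CCNO shows it with 7.02 and 9.33 CPM in controls and 6.73 and 8.43 CPM with USP47 shRNA. H4C11 belongs to a family of near-identical histone genes and its counts are uncertain for that reason.

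**Figure D3:**
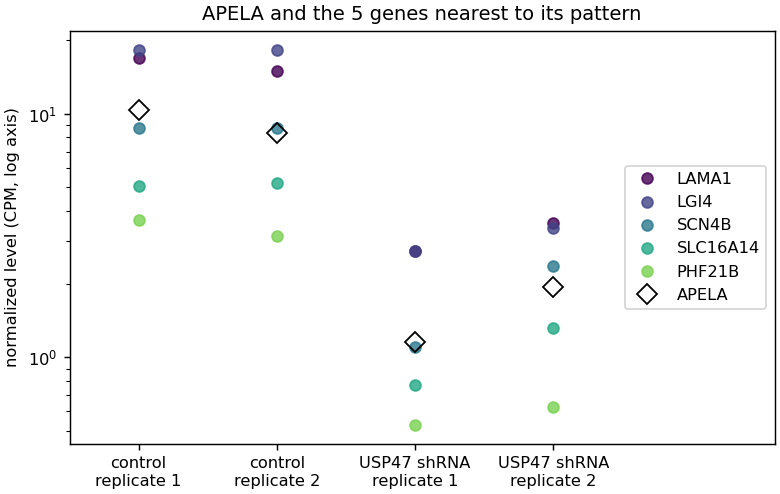
Normalized level (CPM, log axis) of APELA (open diamonds) and the 5 genes nearest to its pattern (filled circles) in each of the 4 libraries. Every gene drops from the control to the USP47 shRNA libraries, and replicate 1 is the lower of the knockdown libraries, with LAMA1 at 2.74 and 3.55 CPM and APELA at 1.15 and 1.95 CPM.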

How the data were processed

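The 4 RNA-Seq libraries of HGC-27 cells were grouped by their labels. For each library the authors deposited a raw count per gene, with the TPM and FPKM values that the authors derived from it (FPKM served only to recover the length used per gene). Per the methods and processing notes, reads were trimmed, aligned to hg19 with STAR 2.7.5c and freed of duplicates and low-quality reads with SAMtools 1.9. Removal of duplicates without molecular identifiers lowers high counts most. The notes name featureCounts; its annotation and strand setting are not given in the sources used here. The labels name a stranded kit, the methods another kit, and the methods state triplicates where the labels give duplicates.

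Counts were fitted with edgeR 4.0.16 in R 4.3.3 (TMM, filterByExpr, robust quasi-likelihood, both directions, Benjamini-Hochberg adjusted p under 0.05 over 21932 genes) and tested on simulated data. Per-library CPM use TMM. DESeq2 1.42.0, other scalings and filters, a replicate block and leaving out each library were alternatives. The text names the 3 genes, USP47, each list's called members (up to 8) and its 2 highest in TPM, all tested genes within 500 kb, and the 5 nearest patterns; other names were chosen after values were seen. The members and gene lists were chosen with earlier results of these data known. Some members of the lists are counted there but not reported here by name.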

Additional observations from a re-analysis of the deposited data

How the results depend on the processing

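The log2 fold change of APELA stayed between -2.70 and -2.61 under the other scalings, filters and DESeq2, and between -3.00 and -2.24 when 1 library was left out, with -2.24 without USP47 shRNA replicate 1. That of APLN lay between -0.20 and -0.10 under the former and between -0.32 and 0.10 under the latter, with 0.10 without control replicate 2 and 0.040 without USP47 shRNA replicate 1. Over all genes 3527 were called, 2800 with library size alone and 2455 by DESeq2, and 1230 to 7270 with 1 library left out. The pathway lists gave 21 calls, 15 by DESeq2, and 9 (without control replicate 1) to 40 (without USP47 shRNA replicate 1) with a library left out. The neighbours gave 10 calls, 6 and 17 with the same libraries left out. A lone library in a group is then assumed to vary like the other group. With the replicate block the calls were 7422 over all genes, 36 in the pathway lists (3 of them for receptor coupling) and 14 among neighbours (CPE near APELA included), and APELA stood at -2.65. The replicate numbers are not stated to mark a shared batch. On the log2(TPM + 1) scale APELA differed by -1.68. Depth limits APLNR to the statement that at most 3 reads were counted in any library.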
